A study of Arabidopsis thaliana with 30 samples.

Results

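The set described here is the 42 nuclear loci whose RNA level differed steadily between the eur1-11 mutant and wild-type (WT) petioles of excised Arabidopsis thaliana leaves, at every time sampled after excision. A locus was taken when the ratio of the eur1-11 mean to the WT mean was at least 2 at all 5 times, or at most 0.5 at all 5 times, and its mean reached 1 CPM, the counts of a locus scaled to 1000000 nuclear gene counts, over the 15 libraries of the higher genotype. A value of 0.1 CPM was added to both means before the ratio was formed. Of 33323 nuclear loci, 19068 had a mean of at least 1 CPM in either genotype and 44 passed the ratio at every time. The rule left out 2 of the 44, and the remaining 42 comprised 37 loci higher and 5 loci lower in eur1-11. Because these levels chose the loci, the levels and ratios of the 2 genotypes are given as a description without a test, and tests are kept to measures that the rule did not use.

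The study asked how the EAR1/EUR1 gene acts after leaf excision, and it sequenced RNA from petiole regions of the 4th rosette leaf of 21-day-old plants grown on soil. The eur1-11 plants carried a chemically induced (EMS) allele of EAR1 in the Col/ORE1::LUC line, in which the ORE1 promoter drives firefly luciferase, and WT was Col/ORE1::LUC without that allele. Both genotypes were sampled straight after excision (0 h) and after 24, 48, 72 and 96 h, with 3 replicates per group, which gave 10 groups and 30 libraries. The eur1-11 samples stand for 1 mutant line, and whether the sequenced plants had been backcrossed is not given in the sources used here, so the EAR1 allele and any other difference carried by that line cannot be told apart. Nothing states that the replicates were separate plants, so the p-values measure only the spread between these samples.

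EAR1 is a negative regulator of abscisic acid signalling, and this hormone is known for closing stomata, slowing growth and promoting stress responses. Several of the loci below belong to pathways that leaves are known to adjust under stress. Anthocyanins are red pigments built from phenylalanine through flavonoids, and aliphatic glucosinolates are defence compounds built from methionine, whose synthesis is lowered when sulfur is short. Other loci are pseudogenes and non-coding RNAs, some of which lie in regions rich in pseudogenes. In the repeat-rich regions around the centromeres, DNA methylation and small RNAs are known to keep transcription low.

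Nuclear gene counts ranged between 10106273 and 30846364 per library, so 1 CPM stood for 10.11 to 30.85 reads. Replicate 3 often lay apart from replicates 1 and 2, and where a result named below was called or lost without it, the value without it is given beside the result or in the closing section. The 5 anthocyanin loci of the set were lowest in replicate 3 in 30 of 30 locus and genotype cases at 48 to 96 h, and highest in it in 8 of 10 cases at 0 h. EAR1 itself (AT5G22090, chromosome 5, 7314583 to 7321743) averaged 220, 494, 497, 396 and 342 CPM in eur1-11 and 290, 641, 542, 486 and 420 CPM in WT at the 5 times. Over the 5 times edgeR called it lower in eur1-11, at -0.30 ± 0.07 on the log2 scale (adjusted p = 0.0133). A point mutation need not alter the RNA level, so this comparison does not check the labels. Summed mesophyll markers lay between 1440 and 36100 CPM in eur1-11 and between 1820 and 30300 CPM in WT, whereas root markers stayed at or under 0.639 CPM in eur1-11 and 0.58 CPM in WT. In such tissue RNA, more cells of a type and more RNA per cell cannot be told apart.

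Some pairs of members share sequence, which bears on how far their counts can be separated, and a stretch of each pair is shown first. The handling of reads that match several places is not given in the sources used here, so the split of counts between near-identical loci is uncertain. The MADS-box loci AT1G59930 and AT1G59920 lie next to each other on the minus strand of chromosome 1, 1082 bases apart, and were 98.8% identical over 419 aligned bases. The windows below are chr1:22061202-22061321 and chr1:22059543-22059662 of TAIR10.1, 120 bases each, and the capital marks the base that differs.
AT1G59930: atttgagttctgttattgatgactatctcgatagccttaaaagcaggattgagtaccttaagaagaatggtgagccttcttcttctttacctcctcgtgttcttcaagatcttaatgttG
AT1G59920: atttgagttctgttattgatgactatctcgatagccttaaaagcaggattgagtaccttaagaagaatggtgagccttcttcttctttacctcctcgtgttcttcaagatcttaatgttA
A read from such a stretch could have come from either locus.

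The non-coding RNA AT2G01422 on chromosome 2 and the short coding locus AT3G28899 on chromosome 3 are both lower in eur1-11, and they were 91.5% identical over 316 bases. Their plus-strand windows chr2:184251-184370 and chr3:10902327-10902446 are shown, and the capitals mark the 10 bases that differ.
AT2G01422: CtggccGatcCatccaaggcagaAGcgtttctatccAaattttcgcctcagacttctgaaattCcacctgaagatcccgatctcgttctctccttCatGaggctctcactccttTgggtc
AT3G28899: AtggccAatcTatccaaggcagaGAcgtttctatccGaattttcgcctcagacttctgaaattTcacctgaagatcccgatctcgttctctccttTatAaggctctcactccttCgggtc
The differences in this pair are spread along the window.

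The non-coding RNAs AT4G04223 on chromosome 4 and AT5G38005 on chromosome 5 are both higher in eur1-11 and were 94.4% identical over 533 bases. Their plus-strand windows chr4:2036662-2036781 and chr5:15155185-15155304 differ at 5 bases, again in capitals.
AT4G04223: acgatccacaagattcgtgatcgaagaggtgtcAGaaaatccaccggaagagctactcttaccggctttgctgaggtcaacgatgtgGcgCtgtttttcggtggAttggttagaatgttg
AT5G38005: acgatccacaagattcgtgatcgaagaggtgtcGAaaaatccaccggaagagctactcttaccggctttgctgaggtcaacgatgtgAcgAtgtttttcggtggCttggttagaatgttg
AT4G04223 also matched the coding locus AT3G56210 at 99.2% over 1307 bases, where the mean ratio was 1.18.

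Over the 5 times, the geometric mean ratio of the 37 higher loci lay between 2.53 and 39.5, with a median of 4.61. In the 5 lower loci it lay between 0.129 and 0.341, with a median of 0.275. The libraries of the 2 genotypes did not overlap at any time in 26 of the 42 loci, did not overlap at 4 times in 8 loci and at fewer times in the other 8. In 11 loci all 15 eur1-11 libraries were above all 15 WT libraries. The share of all loci without such overlap is not given here. Nothing is read from these counts, because the rule chose the loci on the same levels. On another measure, edgeR called 3.38% of all genes tested higher and 2.33% lower in eur1-11 over the 5 times. Within single replicates the median ratio of the higher loci was 4.88, 5.2 and 5.09, and that of the lower loci 0.327, 0.293 and 0.213, for replicates 1, 2 and 3. Applied without replicate 3, the rule again gave 42 loci, of which 37 were shared. Many members were rare RNAs, since 18 stayed under a mean of 5 CPM in the higher genotype, and 21 had at least 1 WT library at 0. At the edge of the rule, the ratio nearest to 1 was 2.08 in MAF4, 2.18 in GSTF12 and 2.19 in AT3G27180, and it was 1.99 in LBD26, 1.99 in AT1G34580 and 1.97 in MRU1, which stayed outside. In the other direction it was 0.469 in AOP2, 0.457 in BCAT4 and 0.399 in AT3G28899, against 0.535 in CBF1, 0.545 in MYB76 and 0.556 in AT2G20150 outside the rule.

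**Figure D1:**
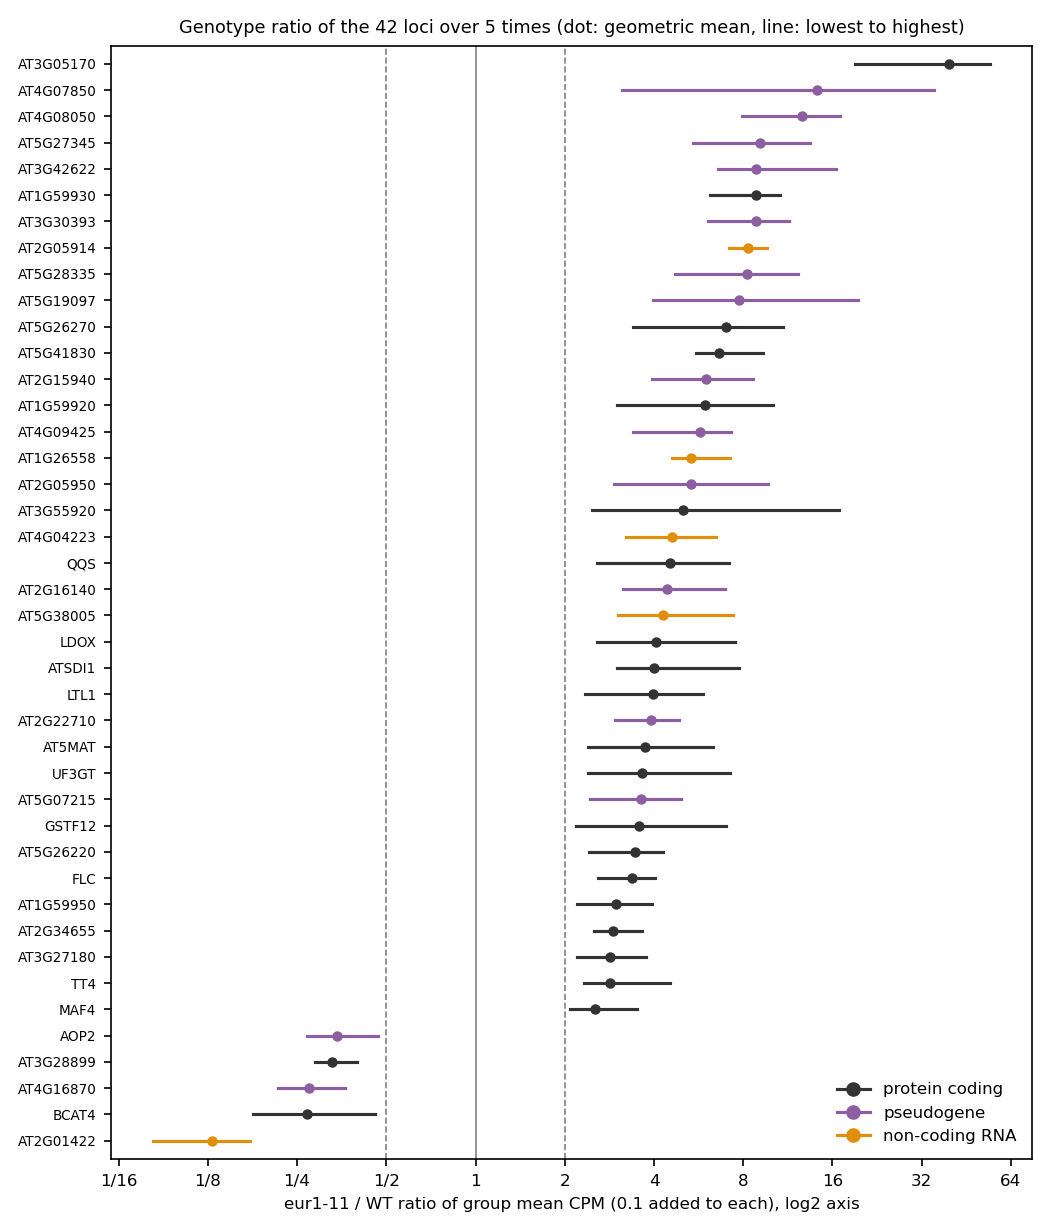
Ratio of the eur1-11 mean to the WT mean CPM for the 42 loci, on a log2 axis, with the geometric mean over the 5 times as a dot and the lowest to highest ratio as a line, coloured by annotation class. AT3G05170 stands farthest to the higher side (39.5) and AT2G01422 farthest to the lower side (0.129), and the dashed lines mark the limits of the rule.

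The annotation of TAIR10.1 places 22 members among protein-coding genes, 15 among pseudogenes (35.7%) and 5 among non-coding RNAs (11.9%). Among the 19068 loci with at least 1 CPM, 1.38% were pseudogenes and 1.1% non-coding RNAs. Members lay on all chromosomes, with 4 on chromosome 1, 7 on chromosome 2, 10 on chromosome 3, 7 on chromosome 4 and 14 on chromosome 5. As a share of the loci with at least 1 CPM, this was 0.0795%, 0.238%, 0.267%, 0.241% and 0.316% on chromosomes 1, 2, 3, 4 and 5. EAR1 also lies on chromosome 5, and 1 member was within 1000000 bases of it, the pseudogene AT5G19097 at a distance of 906975 bases. Within 500000 bases of the pseudogene members, a median of 26.88% of loci were pseudogenes, against 12.65% around all pseudogenes with at least 1 CPM and 3.52% around all loci with at least 1 CPM.

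Genes of anthocyanin synthesis made up 5 of the 37 higher loci, with geometric mean ratios between 2.85 and 4.06. TT4 (AT5G13930), chalcone synthase, which opens the flavonoid pathway, averaged 100 ± 72.8 CPM in eur1-11 and 22.1 ± 16.5 CPM in WT at 48 h (SD, n = 3). Its libraries at 48 h held 118, 162 and 20.3 CPM in eur1-11, against 34.7, 28.1 and 3.48 CPM in WT. The lowest value of each genotype belonged to replicate 3, so the groups overlapped although eur1-11 was higher in every replicate. At 0 h TT4 held 29.5, 35.2 and 100 CPM in eur1-11, against 13.5, 12.9 and 33.4 CPM in WT, and here replicate 3 was the highest of each genotype.

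LDOX (AT4G22880), which forms the coloured anthocyanidins, held 63.2, 56.9 and 28.7 CPM in eur1-11 and 31.5, 22.7 and 1.53 CPM in WT at 96 h. The 2 genotypes overlapped at each of the 5 times for this gene, and a library of replicate 3 was among the overlapping ones every time. GSTF12 (AT5G17220), a glutathione transferase needed to bring anthocyanins into the vacuole, held 32.2, 33.8 and 24.5 CPM in eur1-11, against 17.6, 14.6 and 1.2 CPM in WT at 96 h. These groups were apart at 96 h. UF3GT (AT5G54060), which adds a sugar to anthocyanins, ran over 15 libraries between 0.847 and 28 CPM with a median of 6.09 CPM in eur1-11, and between 0 and 11.9 CPM with a median of 1.22 CPM in WT. AT5MAT (AT3G29590), which adds a malonyl group and is named here after its values were seen, averaged 3.2 CPM in eur1-11 and 0.947 CPM in WT.

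**Figure D2:**
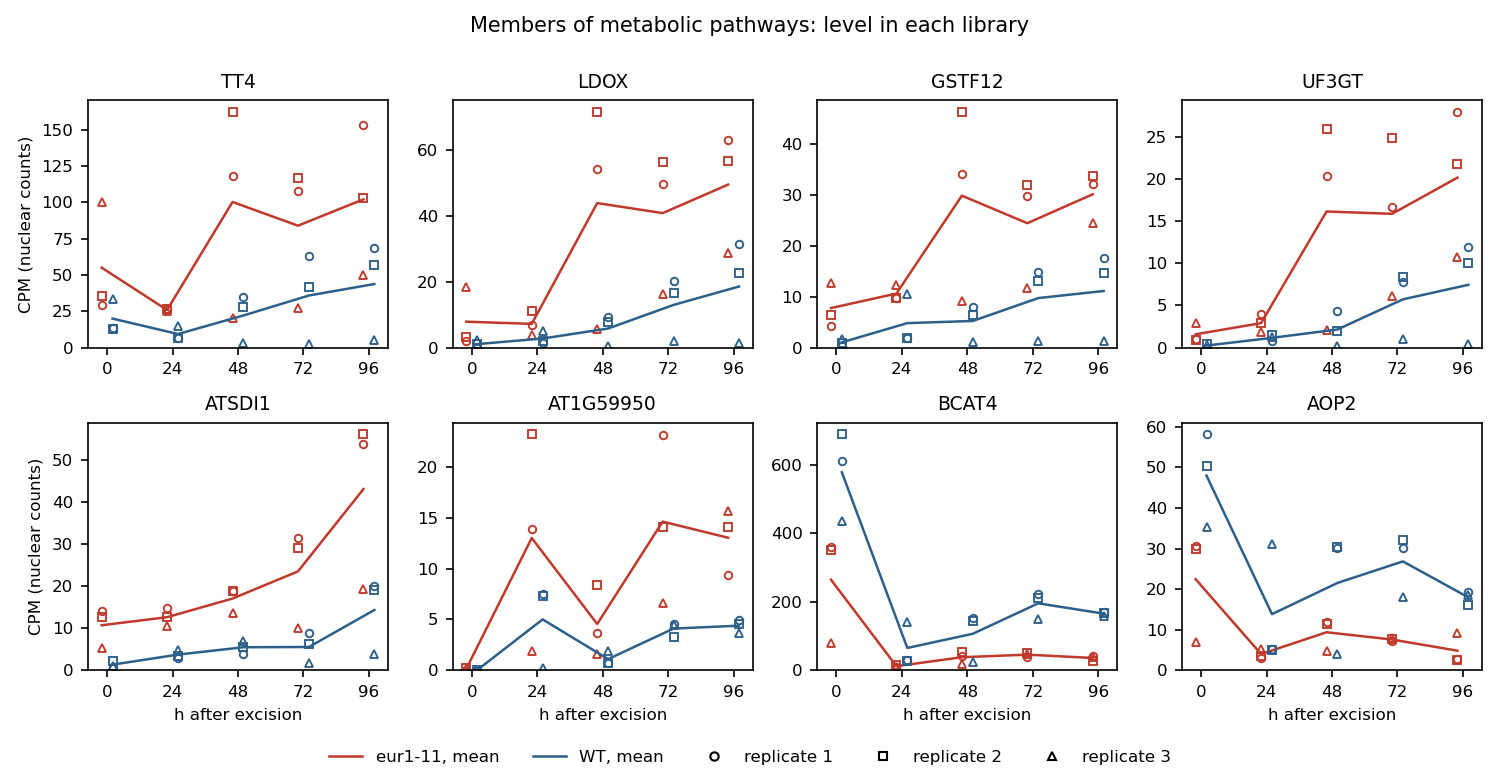
Level (CPM of nuclear counts, linear axis from 0) of 8 members in each of the 30 libraries against hours after excision, with eur1-11 in red drawn left of WT in blue, symbols for the replicates and lines for the group means. Replicate 3 (triangles) lies low for the anthocyanin genes at 48 to 96 h in both genotypes, and BCAT4 is high at 0 h, with means of 265 CPM in eur1-11 and 579 CPM in WT.

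The change over time within a genotype was not used by the rule and was tested for every member, as the mean of 24 to 96 h minus 0 h with edgeR. All 42 members were abundant enough for this test. The test scaled libraries by TMM and not by nuclear gene counts, so its changes can differ from those in CPM. Of the 37 higher loci, 12 rose and 9 fell after excision in eur1-11, where 38.4% of all 21472 genes tested rose and 33.9% fell. In WT, 13 rose and 5 fell, beside 40.1% and 33.6% of all genes. The shares of members that moved were not above those of all genes. With libraries scaled by all gene counts, 29 rose and 0 fell in eur1-11, beside 76.0% and 11.6% of all genes. Without replicate 1, 10 rose and 2 fell in eur1-11, beside 29.1% and 29.5% of all genes. Without replicate 2, 8 rose and 6 fell, beside 28.9% and 29.9%, and without replicate 3, 16 rose and 7 fell, beside 40.6% and 35.6%. The median change of the 37 loci was 0.21 on the log2 scale in eur1-11 and 0.48 in WT, and that of all genes was 0.11 in eur1-11 and 0.13 in WT.

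Of the anthocyanin genes, UF3GT rose in eur1-11, by 1.86 ± 0.76 on the log2 scale (SE, adjusted p = 0.0333). The other 4 were not called there, with -0.71 ± 0.72 for TT4 and 0.62 ± 0.89 for LDOX. In WT, where 40.1% of all genes rose, 3 of the 5 rose. They were UF3GT, GSTF12 and AT5MAT, the last from levels at or near 0. These values rest on replicate 3, which was high at 0 h and low later. Without it the change in eur1-11 was 0.85 for TT4, 3.26 for LDOX, 1.69 for GSTF12 and 3.41 for UF3GT, and LDOX and GSTF12 were then called as well. Without replicate 1 or 2, UF3GT was no longer called, at 1.08 and 1.01.

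The UF3GT upstream window is shown because it alone among the anthocyanin members held the letters CACGTG, the G-box to which bZIP and bHLH factors are known to bind. It covers the 200 bases before the gene start, chr5:21938397-21938596 on the minus strand of TAIR10.1, with both matches in capitals.
UF3GT: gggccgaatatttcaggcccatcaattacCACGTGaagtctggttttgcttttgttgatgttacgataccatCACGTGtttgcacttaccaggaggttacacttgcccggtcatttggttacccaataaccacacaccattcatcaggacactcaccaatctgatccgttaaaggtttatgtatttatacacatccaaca
CACGTG reads the same on both strands. It was found in the windows of 4 of 22 protein-coding members (18.2%), of 1 of 5 anthocyanin members and of 5.74% of all 26711 protein-coding loci. The AC elements to which MYB factors are known to bind (ACCTAAC or ACCTACC or ACCAAAC or ACCAACC), searched on both strands, were found in 2 of 22 coding members (9.09%), in 0 of the 5 anthocyanin members and in 11.4% of all coding loci. A match is a description of the letters and does not show a bound site.

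Both sulfur-related members were higher in eur1-11. ATSDI1 (AT5G48850), named for its induction by sulfur shortage and known to lower glucosinolate synthesis, held 53.7, 56.1 and 19.3 CPM in eur1-11 and 20.1, 18.9 and 3.82 CPM in WT at 96 h. The 2 groups overlapped at this time only through replicate 3 of eur1-11, and they were apart at the other 4 times. At 0 h, for example, it held 14.1, 12.5 and 5.35 CPM in eur1-11, against 0.825, 2.06 and 0.99 CPM in WT. ATSDI1 rose after excision in WT, by 1.81 ± 0.54 (SE, adjusted p = 0.00479), and its change in eur1-11 was 0.47 ± 0.37 (adjusted p = 0.26). Without replicate 3 the change in eur1-11 was 0.39 and was called. AT5G26220, a ChaC-like enzyme of glutathione breakdown described here after its values were seen, averaged 5.56 CPM in eur1-11 and 1.55 CPM in WT. It rose by 2.98 ± 0.59 in eur1-11 and by 3.61 ± 0.94 in WT.

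Genes of aliphatic glucosinolate synthesis made up 2 of the 5 lower loci. BCAT4 (AT3G19710), which starts the lengthening of the methionine side chain, held 41.1, 27.3 and 38.1 CPM in eur1-11 and 170, 167 and 159 CPM in WT at 96 h. These groups were apart, and at 0 h they were also apart with 361, 352 and 80.7 CPM in eur1-11, against 611, 690 and 436 CPM in WT. At 48 h they overlapped, because replicate 3 of WT held 22.3 CPM. AOP2 (AT4G03060), an enzyme that modifies the side chain and is annotated as a pseudogene in this accession, averaged 9.61 CPM in eur1-11 and 25.6 CPM in WT. Both fell after excision in both genotypes. BCAT4 fell by 3.69 ± 0.40 in eur1-11 (adjusted p = 3.73e-08) and by 2.78 ± 0.40 in WT (adjusted p = 2.1e-06), and AOP2 fell by 2.44 ± 0.49 in eur1-11 and by 1.86 ± 0.47 in WT.

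Another 4 higher loci encode MADS-box proteins. FLC (AT5G10140) and its relative MAF4 (AT5G65070), both repressors of flowering, are described here after their values were seen. FLC ran between 4.29 and 10.5 CPM with a median of 6.49 CPM over the eur1-11 libraries, and between 0.732 and 5.54 CPM with a median of 1.52 CPM over the WT libraries. Replicate 3 was the highest of its group at each time, in both genotypes. In the edgeR test FLC fell after excision, by 0.59 ± 0.23 in eur1-11 (adjusted p = 0.0298) and by 0.99 ± 0.28 in WT (adjusted p = 0.00351). In CPM its eur1-11 means were 7.11 at 0 h and 7.23, 7.5, 7.19 and 6.15 at the later times. The fall of FLC in eur1-11 thus depends on the scaling. MAF4 averaged 6.68 CPM in eur1-11 and 2.69 CPM in WT, and the genotypes did not overlap at any time.

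The paired MADS-box loci shown above were further apart between the genotypes. AT1G59930 held 7.94, 9.85 and 9.74 CPM in eur1-11 at 96 h, against 1.41, 1.65 and 1.16 CPM in WT. At 0 h it held 18.6, 19.6 and 5.76 CPM in eur1-11 and 1.78, 2.06 and 1.39 CPM in WT. All 15 eur1-11 libraries lay above all 15 WT libraries for this locus and for AT1G59920, which averaged 3.46 CPM in eur1-11 and 0.495 CPM in WT. Both fell in eur1-11, by 1.01 ± 0.23 in AT1G59930 (adjusted p = 0.000616) and by 1.2 ± 0.27 in AT1G59920 (adjusted p = 0.000525). The call of AT1G59930 was lost without replicate 1 and without replicate 2, at -0.79 each, and that of AT1G59920 without replicate 1, at -1.02. When libraries were scaled by all gene counts, chloroplast and mitochondrial genes included, these changes became 0.29 and 0.10, and the median of all genes in eur1-11 then stood at 1.40. A similar MADS-box locus on chromosome 5, AT5G35120, averaged 0.241 CPM in eur1-11 and 0.0278 CPM in WT.

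Near this pair lies AT1G59950, an NAD(P)-linked oxidoreductase 6517 bases from AT1G59930. At 72 h it held 23.2, 14.2 and 6.62 CPM in eur1-11 and 4.5, 3.31 and 4.48 CPM in WT. At 0 h it held 0, 0.226 and 0.136 CPM in eur1-11, and all 3 WT libraries were at 0. It rose after excision in both genotypes, by 5.80 ± 1.14 in eur1-11 (adjusted p = 0.000147), and the change in WT starts from 0 counts and has no measured size.

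AT3G05170, a phosphoglycerate mutase family gene on chromosome 3 (1466483 to 1468400, plus strand), had the highest ratio. Its eur1-11 libraries ran between 2.45 and 5.47 CPM with a median of 4.41 CPM, while 14 of 15 WT libraries were at 0. In counts this was 1523 reads in eur1-11 and 2 reads in WT, a ratio of 633 in CPM with an exact 95% interval of 175 to 5230 that covers counting error only. The 2 WT reads came from 1 library at 0 h. Its change over time in eur1-11 was 0.02 ± 0.24 (adjusted p = 0.997), and the test called a fall in WT that rests on those 2 reads.

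AT3G55920, a cyclophilin-like protein-folding enzyme named here after its values were seen, was apart between the genotypes in every library. It held 5.93, 4.95 and 7.61 CPM in eur1-11 at 96 h, against 2.2, 2.53 and 2.57 CPM in WT, and 9.12, 5.99 and 7.93 CPM in eur1-11 at 0 h, against 0.444, 0.247 and 0.396 CPM in WT. In the edgeR test it fell by 0.59 ± 0.18 in eur1-11 (adjusted p = 0.00576) and rose by 1.87 ± 0.34 in WT (adjusted p = 3.51e-05). In CPM its eur1-11 means were 7.68 at 0 h and 8.18, 8.68, 7.51 and 6.16 at the later times. For this locus the fall in eur1-11 thus depends on the scaling. Its ratio was 2.47 at 96 h and 16.8 at 0 h. The difference between the genotypes in this change was not tested.

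Of the other coding members, LTL1 (AT3G04290), a lipase named for lithium tolerance, was set by 1 library at 0 h. It then held 9.92, 12.9 and 114 CPM in eur1-11 and 9.78, 6.27 and 22.1 CPM in WT, and replicate 3 was the highest in each genotype. It fell by 2.38 ± 0.60 in eur1-11 (adjusted p = 0.00132), and without replicate 3 the change was 0.01. AT2G34655, of unknown function, averaged 34.2 CPM in eur1-11 and 11.6 CPM in WT, was apart at all 5 times and was not called to change after excision in either genotype. Its change in eur1-11 was -0.22 ± 0.24, and without replicate 3 it was -0.75 and was called. AT3G27180, a methyltransferase family gene, averaged 7.83 CPM in eur1-11 and 2.74 CPM in WT. QQS, an orphan gene of Arabidopsis that affects starch content, averaged 3.21 CPM in eur1-11 and 0.612 CPM in WT and was also described after its values were seen.

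Pseudogenes other than AOP2 made up 14 members, of which 13 were higher in eur1-11, with a median ratio of 6.87 over the 14. AT3G30393, on chromosome 3 at 11998920 to 12003671, held 40.9, 42.4 and 15.9 CPM in eur1-11, against 3.38, 4.05 and 1.83 CPM in WT, at 96 h. At 0 h it held 0.171, 1.35 and 0 CPM in eur1-11 and 0 CPM in all 3 WT libraries. It rose after excision by 4.68 ± 0.52 in eur1-11 (adjusted p = 1.11e-07), and it was also called to rise in WT, where it started from 0 counts.

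AT4G07850 followed a like course at a lower level. At 96 h it held 13.6, 12.6 and 5.16 CPM in eur1-11, against 0.394, 0.578 and 0.166 CPM in WT. At 0 h it held 0.456, 0.113 and 0.0677 CPM in eur1-11 and was at 0 in all 3 WT libraries. It rose by 3.59 ± 0.46 in eur1-11 (adjusted p = 1.64e-06). In eur1-11, replicate 3 held the lowest level of AT3G30393 and of AT4G07850 at 72 and at 96 h.

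AT4G08050 held 450 reads in eur1-11 and 2 reads in WT, a ratio of 187 in CPM with an exact 95% interval of 51.4 to 1550. The interval covers counting error only and is no test, because this ratio helped to choose the locus. Its eur1-11 libraries were uneven, with 0, 0.0824 and 2.87 CPM at 96 h, and all 3 WT libraries were at 0 then. AT5G27345 averaged 1.26 CPM in eur1-11 and 0.0389 CPM in WT. AT5G19097, the member nearest to EAR1, held between 2.33 and 8.99 CPM in eur1-11 and between 0.0416 and 2.36 CPM in WT.

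AT4G16870 was the pseudogene that went the other way. It held 1, 1.32 and 0.886 CPM in eur1-11 and 2.53, 2.53 and 4.77 CPM in WT at 96 h, and 6.9, 4.01 and 2.64 CPM in eur1-11 and 23, 21.9 and 19.1 CPM in WT at 0 h. It fell after excision in both genotypes, by 3.06 ± 0.24 in eur1-11 (adjusted p = 1.82e-10) and by 3.38 ± 0.20 in WT (adjusted p = 2.36e-12). Of the 14 pseudogenes, 5 rose and 4 fell after excision in eur1-11, beside 38.4% and 33.9% of all genes. In WT, 3 rose and 2 fell, beside 40.1% and 33.6%. These shares were not above those of all genes.

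**Figure D3:**
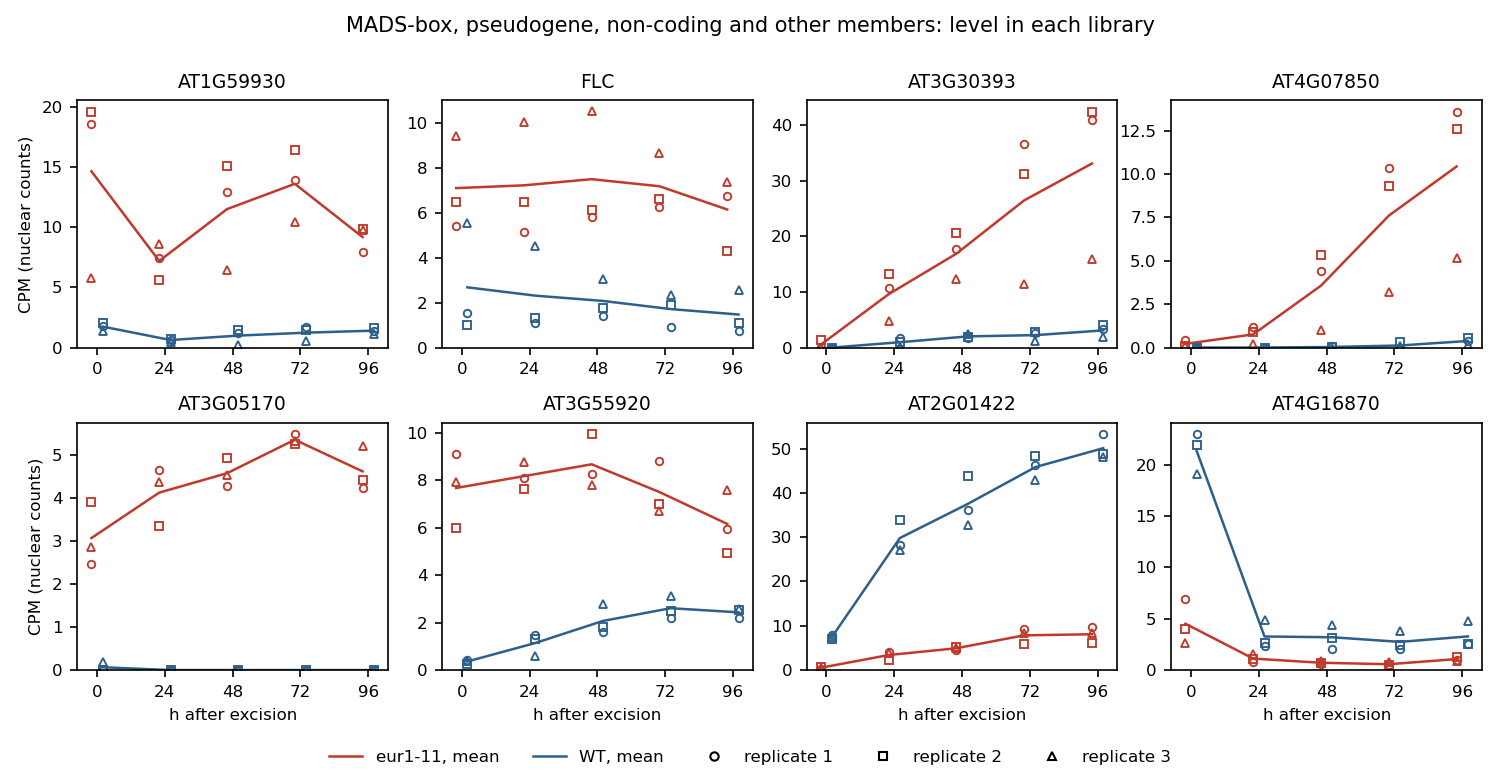
Level (CPM of nuclear counts, linear axis from 0) of 8 MADS-box, pseudogene, non-coding and other members in each of the 30 libraries against hours after excision, with eur1-11 in red drawn left of WT in blue, symbols for the replicates and lines for the group means. AT3G05170 lies at 0 in 14 of 15 WT libraries, and AT2G01422 reaches 8.09 CPM in eur1-11 and 50.1 CPM in WT at 96 h on average.

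AT2G01422 had the lowest ratio of the set. It held 9.73, 6.1 and 8.44 CPM in eur1-11 and 53.2, 48.9 and 48.2 CPM in WT at 96 h, and 0.342, 0.677 and 0.542 CPM in eur1-11 and 8, 7.01 and 7.52 CPM in WT at 0 h. It rose after excision by 2.86 ± 0.25 in eur1-11 (adjusted p = 8.71e-10) and by 1.86 ± 0.17 in WT (adjusted p = 1.94e-09). AT3G28899, which shares sequence with it, averaged 1.56 CPM in eur1-11 and 4.79 CPM in WT and rose by 1.73 ± 0.33 in eur1-11 and by 1.29 ± 0.26 in WT. AT3G28899 lies within AT3G28900 on the opposite strand, which averaged 43.4 CPM in eur1-11 and 43.7 CPM in WT. Of the higher non-coding RNAs, AT4G04223 averaged 13.9 CPM in eur1-11 and 3.02 CPM in WT, was apart at all 5 times, and rose by 0.51 ± 0.18 in eur1-11 (adjusted p = 0.0158). That call was lost without replicate 3, at 0.24, and without replicate 2, at 0.52. In all, 10 members overlap a locus on the opposite strand, and because no source states whether strand was counted, reads of such partners cannot be told apart.

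To set the difference against libraries that did not choose the loci, the rule was applied to 2 replicates and eur1-11 was compared with WT in the 10 libraries of the remaining replicate. Those 10 libraries held a single library of each genotype at each time. The p-values and SE of this comparison therefore measure the scatter of the genotype difference over the 5 times, and not the spread between replicates. Loci chosen on replicates 2 and 3 numbered 33 higher and 5 lower. In replicate 1, 25 of the 33 were called higher and 5 of the 5 lower, where 1.49% of the 20138 genes tested were called higher and 0.596% lower. Loci chosen on replicates 1 and 3 numbered 36 higher and 6 lower, and in replicate 2, 26 and 5 of them were called in their direction, beside 1.08% and 0.469% of 20056 genes. Loci chosen on replicates 1 and 2 numbered 39 higher and 3 lower, and in replicate 3, 14 and 3 were called, beside 0.201% and 0.176% of 19931 genes. With DESeq2 31 of these 42 were called in replicate 3, and with edgeR and no filter on low counts 26. None was called in the opposite direction in any replicate. Higher loci near 0 in WT passed the read filter only through eur1-11, so for them an opposite call could not arise. The loci that were not tested, 4, 6 and 8 in the 3 rounds, held too few reads in that replicate.

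Without any filter on reads, the held-out group values lay on the chosen side at all 5 times for 35 of 38, 39 of 42 and 36 of 42 loci, and past the ratio of the rule at all 5 times for 24, 24 and 20. The share of all loci that keep to the same side is not given here. Higher loci near 0 in WT could hardly lie on the other side, so nothing is read from these counts. Among the 42 members, 26 were chosen in all 3 rounds, and 13 of these were called in all 3. They included AT2G01422, with differences of -2.71 ± 0.19, -3.19 ± 0.13 and -2.69 ± 0.15 in replicates 1, 2 and 3. AT1G59930 had 3.15 ± 0.16, 3.15 ± 0.15 and 3.53 ± 0.34, and FLC had 2.42 ± 0.21, 2.08 ± 0.17 and 1.41 ± 0.17. None of the anthocyanin genes was among the 13. TT4, for example, had 1.34 ± 0.15, 1.68 ± 0.21 and 2.20 ± 0.36, with an adjusted p of 0.0593 in replicate 3. The 3 replicates may share a seed lot or growth, so this compares libraries of the same 2 lines.

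**Figure D4:**
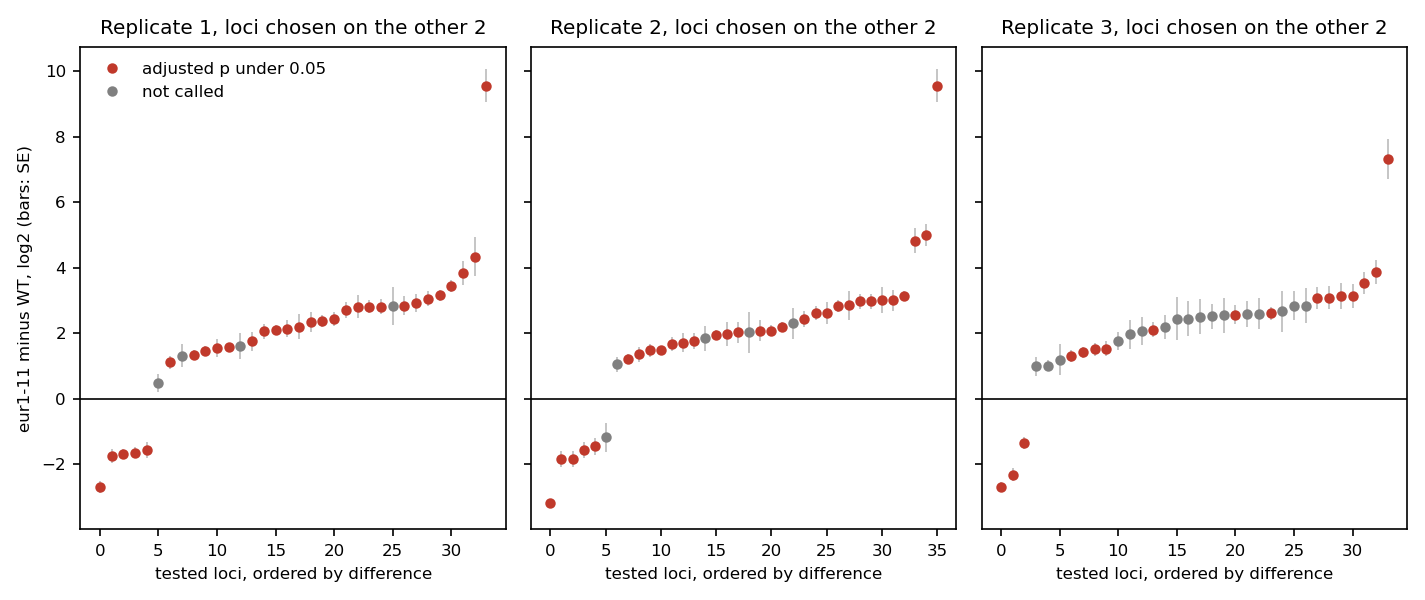
Difference of eur1-11 minus WT (log2, bars are SE) in the 10 libraries of 1 replicate for the loci chosen on the other 2 replicates and tested, ordered by size, with red for an adjusted p under 0.05. All tested loci keep the sign of the choice, and 30, 31 and 17 are called in replicates 1, 2 and 3. Higher loci near 0 in WT were tested only where eur1-11 held reads, so their sign could not turn.

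Loci beside the members were examined next, as the nearest tested locus on each side that is itself no member. Of 79 such loci, 1 had met the thresholds of the rule and was left out by it, so it is not counted here. Of the other 78, 4 were called higher in eur1-11 over the 5 times and 0 lower, or 5.13%, where 3.38% of all 21472 genes were called higher and 2.33% lower. The share called was thus near that of all genes. Without replicate 3, 14 were called higher and 8 lower, where 11.6% and 10.2% of all genes were, and 2 and 1 were called without replicates 1 and 2. The median difference of the 78 was 0.03 on the log2 scale, and that of all genes was 0.00. The median distance to the member was 3505 bases. One of the 4, AT3G55910, overlaps AT3G55920 on the opposite strand and held 311 reads in eur1-11 and 0 in WT, at least 86.1-fold higher against a floor of 3 reads over the WT libraries. The chloride channel gene CLC-B overlaps AT3G27180 on the opposite strand and was higher by 0.75 ± 0.18 (adjusted p = 0.0145). HB17, a homeodomain gene beside AT2G01422, was higher by 0.86 ± 0.25 (adjusted p = 0.0467), against the direction of that member. Its mean levels were closer than this, at 2.81 CPM in eur1-11 and 2.57 CPM in WT. AT4G08093 was also higher and averaged 0.278 CPM in eur1-11 and 0.0427 CPM in WT.

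Similar sequence elsewhere in the genome was common among the members. A stretch of at least 300 bases with at least 80% identity was found for 24 of 42 members (57.1%), against 19.6% of the 19053 annotated loci with at least 1 CPM. By class it was 12 of 15 pseudogene members (against 53.2% of pseudogenes with at least 1 CPM), 8 of 22 coding members (36.4%, against 19.1%) and 4 of 5 non-coding members (against 23.3%). On the stretches similar to higher members lay 250 loci that are no members, of which 27 held at least 30 reads over both genotypes. Of these, 19 held fewer than 30 reads in WT, so most reached the minimum through eur1-11 and no count of directions is drawn from them. Of the 8 with at least 30 reads in WT, 6 had a higher mean in eur1-11 and 1 had a ratio of at least 2, AT4G01980, which is similar to AT2G22710 and averaged 1.19 CPM in eur1-11 and 0.433 CPM in WT. The comparison was chosen after values were seen, and reads may be shared between copies.

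AT3G30393 had 97 such stretches, up to 3456 bases long. On them lay pseudogenes with few reads in WT, of which AT3G29732 averaged 1.48 CPM in eur1-11 and 0.0724 CPM in WT, and AT2G10480 averaged 0.739 CPM in eur1-11 and 0.0456 CPM in WT. AT4G08050 had 221 stretches. Similar loci over 5 CPM lay close to equal levels in the genotypes. AT3G56210 above is one, and AT3G47680, similar to the pseudogene member AT2G16140, averaged 11.8 CPM in eur1-11 and 12.3 CPM in WT.

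**Figure D5:**
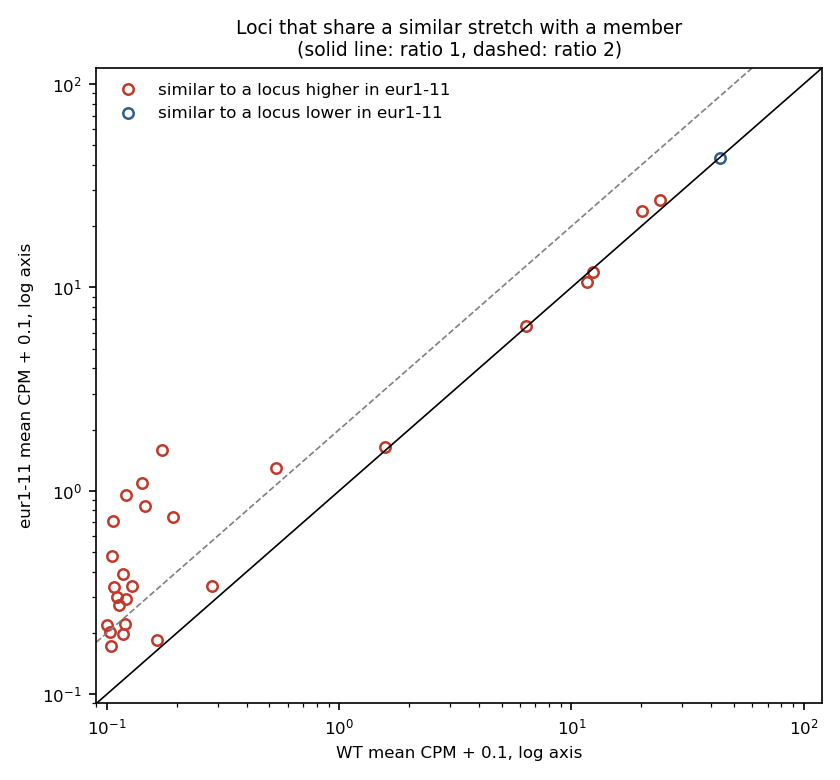
Mean CPM (0.1 added, log axes) in eur1-11 against WT of the loci that are no members, hold at least 30 reads and share a stretch of at least 300 bases at 80% identity with a member. The loci over 5 CPM lie close to the line of equal level, and of the 27 loci similar to higher members (red), 19 hold fewer than 30 reads in WT and reached the read minimum mostly through eur1-11.

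Genes known to keep repeats silent were compared as lists, and whether any member is under their control was not tested. Of 30 genes of DNA methylation and transcriptional silencing, 0 were called by edgeR over the 5 times, and the median difference was -0.04. An unadjusted edgeR p under 0.05 was found for 8. The share of all genes under that cut is not given here, so nothing is read from the 8. DESeq2 called 4, beside 5.14% of all genes higher and 3.79% lower by DESeq2. Among the 9 genes of RNA silencing and nonsense-mediated decay, the median difference was -0.01. SGS3, which works in small RNA production, was lower by 0.20 ± 0.05 (edgeR, adjusted p = 0.0232). Apart from the result that is not reported here, the other genes of this list lay between -0.16 and 0.05, and none of them was called. Of 47 cell type markers, 29 were tested and 2 were called (6.9%), beside 3.38% of all genes called higher and 2.33% lower. HT1, a guard cell kinase, was higher by 0.59 ± 0.11 (adjusted p = 0.00299). The other guard cell markers lay between -0.04 and 0.36, and none of them was called. SUC2, the sucrose carrier of phloem companion cells, was lower by 0.21 ± 0.06 (adjusted p = 0.0333). The other phloem markers lay between -0.02 and 0.19, and none of them was called. The 5 guard cell markers summed to between 31.4 and 50.2 CPM in eur1-11 and between 28.1 and 42.4 CPM in WT over all times, and at 96 h they were apart, at 42.5 to 45.7 CPM in eur1-11 and 30.7 to 35.3 CPM in WT. Epidermis markers were apart at 72 h, at 348 to 389 CPM in eur1-11 and 244 to 306 CPM in WT. They overlapped at every other time, and 0 of the 5 tested were called over the 5 times. Both times were picked from the sums of all marker lists at all times, so nothing is read from them. The 5 phloem markers summed to between 566 and 1050 CPM in eur1-11 and between 612 and 1090 CPM in WT. Without replicate 3, where 11.6% of all genes were called higher and 10.2% lower, 3 of the 39 silencing and decay genes were called higher and 7 lower, among them CMT2, a DNA methyltransferase, with 0.34 ± 0.04 and ROS1, a DNA demethylase, with -0.27 ± 0.04. Of 30 markers tested then, 7 were called higher and 4 lower, and 3 of the 4 lower ones were mesophyll markers. Of the phloem markers, SUC2 was then called lower at -0.18 and SWEET11 higher at 0.22. Without replicate 1 or 2 no gene of these lists was called. Neither these genes nor the marked cell types were tested for a part in the differences of the 42 loci.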

How the data were processed

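RNA was sequenced from petiole regions of 30 samples in 10 groups. The submitters' notes name FastQC, STAR, HTSeq and the TAIR10 build (tool versions not given in the sources used here), and the authors deposited raw read counts per gene without normalization. Reads on no gene were 3.58 to 6.76% and ambiguous reads 2.43 to 3.45% of each library and were left out. Organelle genes took 20.6 to 63.6% of gene counts and were left out of CPM. Names, classes and positions came from TAIR10.1 (32835 of 33602 identifiers and all 42 members matched).

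Counts were tested with edgeR 4.0.16 in R 4.3.3 (quasi-likelihood F test, TMM, filterByExpr, 1 term per group, replicate number as a block as in the study's methods), with Benjamini-Hochberg adjustment over all genes, called under 0.05. The SE is the size of the log2 change over the root of F. In the check of the pairing, same-numbered samples of the 2 genotypes deviated together in 15 of 15 pairs (mean r = 0.518 across 16257 genes), against a mean r of -0.211 in pairs of other numbers. Replicates held out were fitted with time as a factor. Similar stretches were found with megablast (BLAST 2.17.0). Scripts were tested on simulated data.

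The members, lists and tests were chosen with earlier results of these data known. Named were the 12 members of each direction with the highest level, the 4 with the ratio farthest from 1, those within 1000000 bases of EAR1 and those next to each other. AT5MAT, AT5G26220, FLC, MAF4, AT3G55920, QQS and AT5G38005 and the loci beside or similar to members were named after their values were seen. Alternatives were DESeq2 1.42.0, its size factors, all gene counts, no filter, no block, leaving out replicates, and other settings of the rule. The result of 1 gene of the RNA silencing and decay list is not reported here. The read minimum in WT for similar loci, and leaving out of the loci beside members the 1 that met the rule's thresholds, were chosen after seeing the data.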

Additional observations from a re-analysis of the deposited data

Results flagged for a closer look

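AT3G05170 was singled out because its later libraries lay on opposite sides of the 0 h mean in the 2 genotypes. Its mean was 4.66 CPM over the later eur1-11 libraries and 3.06 CPM at 0 h, and every later library lay above the 0 h mean, but the edgeR test of this change in eur1-11 gave 0.02 ± 0.24 (adjusted p = 0.997). In WT it was 0 CPM in all later libraries and 0.066 CPM at 0 h, which is 2 reads in 1 library. The difference between the genotypes was not tested, and movement in opposite directions is not shown.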

How the results depend on the processing

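The rule gave 42 loci. It gave 19 with 1 CPM added, 24 with a minimum of 5 CPM, 19 with a ratio of 3, 33 with all gene counts (28 shared), 46 with TMM-scaled CPM (41 shared), and 38 to 42 without 1 replicate.

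Of the 37 higher loci, 12 rose and 9 fell after excision in eur1-11. With libraries scaled by all gene counts, 29 rose and 0 fell, and the median of all genes then was 1.40 instead of 0.11. Leaving out 1 replicate gave 8 to 16 that rose and 2 to 7 that fell, with 2 without replicate 1. Scaling by all gene counts turned the sign of AT1G59920 (0.10), AT1G59930 (0.29), AT2G34655 (1.08), AT3G27180 (0.79) and AT5G19097 (0.62). Without replicate 3 the sign turned, and over the 3 omissions the range was -3.17 to 0.01 for LTL1, -0.76 to 0.07 for AT3G27180 and -1.43 to 0.85 for TT4. Without replicate 3, AT5G19097 (-0.40) and AT5G27345 (0.99) were no longer called. The cause was not tested.

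The 17 loci called in replicate 3 became 26 without the filter on low counts and 31 with DESeq2. The called loci beside members, 5 with the locus that the rule left out, became 9 with all gene counts, 10 with DESeq2, and 2 to 23 without 1 replicate. The 2 calls among silencing and decay genes became 1 without the filter, 8 with DESeq2, and 0 to 10 without 1 replicate. The 2 called markers became 0 to 11 without 1 replicate.

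Without the replicate block, 11 higher loci rose and 6 fell in eur1-11, 3 loci beside members and 1 marker were called, and AT4G08050 (-1.80), AT5G19097 (-0.63) and AT5G27345 (1.06) were no longer called. The block changed no other call among the named loci. Values under 1 CPM rest on few reads, and copies of similar sequence limit which locus a read is counted for.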
